A study of Aedes aegypti with 7 samples.

Results

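The immune genes described here are the Aedes aegypti genes with AGO1 CLIP-seq peaks whose annotation name holds 1 of 11 words for innate immune proteins. The words were prophenoloxidase, serpin, serine protease inhibitor, clip-domain, toll, lectin, lysozyme, peptidoglycan, gram-negative, thioester and leucine-rich immune, in any case. They matched 138 of the 8578 VectorBase genes with a peak, and 582 of the 100836 peaks of the table. Of the 138 genes, 5 are named as another kind of protein. These are 4 thioesterases and AAEL010584, a vesicular mannose-binding lectin. The word thioester matched thioesterases alone, since no gene with a peak is named thioester-containing.

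The study used adult females of this species, the yellow fever mosquito, of the strain UGAL/Rockefeller and took their fat body. AGO1 CLIP-seq was done at 72 h post eclosion (PE), when females 3 or 4 days past emergence had not been fed blood, and at 24 h post blood meal (PBM), in mosquitoes of the same cages. Each time has 3 libraries, called independent biological replicates by the series' design text. All 6 libraries come from tissue sliced, exposed to ultraviolet light, lysed and enriched with an AGO1 antibody. The females at 24 h PBM were also older, and unfed females of that age were not analysed here, so the blood meal and age cannot be told apart.

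AGO1 is the Argonaute protein that insect microRNAs (miRNAs) guide to messenger RNAs, where it lowers translation or stability. In CLIP-seq, ultraviolet light links the protein to the RNA it touches, so that the reads mark where on a transcript AGO1 was bound. The fat body is the insect counterpart of the liver. It secretes yolk precursors after a blood meal and most of the immune proteins of the blood, which is called hemolymph. Microbes are recognised there by peptidoglycan recognition proteins, Gram-negative binding proteins, lectins and leucine-rich immune proteins. Recognition starts cascades of CLIP-domain serine proteases, which serpins restrain, and these cascades activate the Toll pathway or cleave prophenoloxidase into the enzyme that makes melanin.

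The libraries held 69424 to 132758 counts in peaks, of which 48023 to 91360 lay on genes or miRNA precursors. The TMM (trimmed mean) scaling factors were 1.16 to 1.28 at 72 h PE and 0.779 to 0.842 at 24 h PBM. Scaling to library totals moved the median log2 change of all tested genes by -0.61, and every change below is on the TMM scale. In both times the replicate 1 library stood apart. Its chi-square per degree of freedom over genes was 5.96 to 8.71 against each other library of its time, and 2.76 and 3.41 between replicates 2 and 3. The 8 vitellogenin, lipophorin, hexamerin and related genes of the fat body list summed to 754 to 1974 CPM (counts scaled to library size and TMM factor) at 72 h PE and 34983 to 51426 CPM at 24 h PBM. Of their 7625 counts, 7580 lay on the yolk genes vitellogenin-A1 and vitellogenic carboxypeptidase and 45 on the other 6, so the check of the label rests on yolk genes. An ovary list of vitelline membrane proteins and oskar summed to 0, 10.8 and 32.9 CPM at 72 h PE. At 24 h PBM it summed to 121, 593 and 3696 CPM. Muscle genes summed to 2487 to 4210 CPM and 3921 to 8851 CPM. The part of these other tissues in the results was not tested.

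The immune genes took 288, 493 and 276 counts in the 72 h PE libraries and 380, 345 and 292 in the 24 h PBM libraries, 2074 in all. These were 0.344%, 0.460% and 0.398% of all counts at 72 h PE, and 0.286%, 0.381% and 0.318% at 24 h PBM, and the times overlapped. The mean share was 0.400% ± 0.0581 (SD, n = 3) at 72 h PE and 0.328% ± 0.0482 (SD, n = 3) at 24 h PBM. For single libraries the 95% Wilson intervals ran from 0.259% to 0.316% at the lowest share and from 0.421% to 0.502% at the highest, for counting error only. On the TMM scale the direction was the opposite, with a summed level of 4731 ± 509 CPM (SD, n = 3) at 72 h PE and 5752 ± 763 CPM at 24 h PBM, again overlapping. The direction of the sum thus depends on the scaling, and no direction is given for the immune genes as a whole. Counts per gene were few, with a median of 5 over the 6 libraries, as over all genes. Of the 138 genes, 27 had 1 count, 34 had 10 or more and 18 had counts in all 6 libraries.

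Between 72 h PE and 24 h PBM, AGO1 counts rose on a prophenoloxidase and a short leucine-rich immune gene, and both were also called without a count filter. A serpin and a transmembrane leucine-rich immune gene fell among the genes that passed the filter, and neither was called without it. The transmembrane gene, AAEL007103, passed through its level at 72 h PE alone and the prophenoloxidase, AAEL013492, could have passed through 24 h PBM alone. The short gene, AAEL001414, and the serpin, AAEL013936, could also have passed through their higher time alone. AAEL001414 reached the filter level in 3 libraries at 24 h PBM and 2 at 72 h PE. For AAEL013936 it was 3 at 72 h PE and 2 at 24 h PBM. Only 9 of the 138 genes (6.52%) had enough counts for the test, against 7.93% of all genes, and the 9 held 53.8% of the immune counts. By edgeR's quasi-likelihood test with Benjamini-Hochberg adjustment over all 687 tested genes, 2 of the 9 were higher at 24 h PBM, 2 were lower and 5 were not called. Among all 687 tested genes, 25.5% were called, 12.8% higher and 12.7% lower. The libraries of both times did not overlap for 5 of the 9, with 24 h PBM above for 3 and below for 2. Of all tested genes 42.4% did not overlap, 20.1% above and 22.3% below. The median log2 change of the 9 was 0.78, and that of all tested genes was -0.00016. With 9 genes tested, these shares describe the genes that passed the count filter and not the 138. Without a filter, edgeR called 2 of the 138, AAEL013492 and AAEL001414, against 1.52% of all 8662 genes. At an unadjusted p under 0.05 there were 8 of the 138, against 7.27% of all genes. Both shares are near those of all genes.

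**Figure D1:**
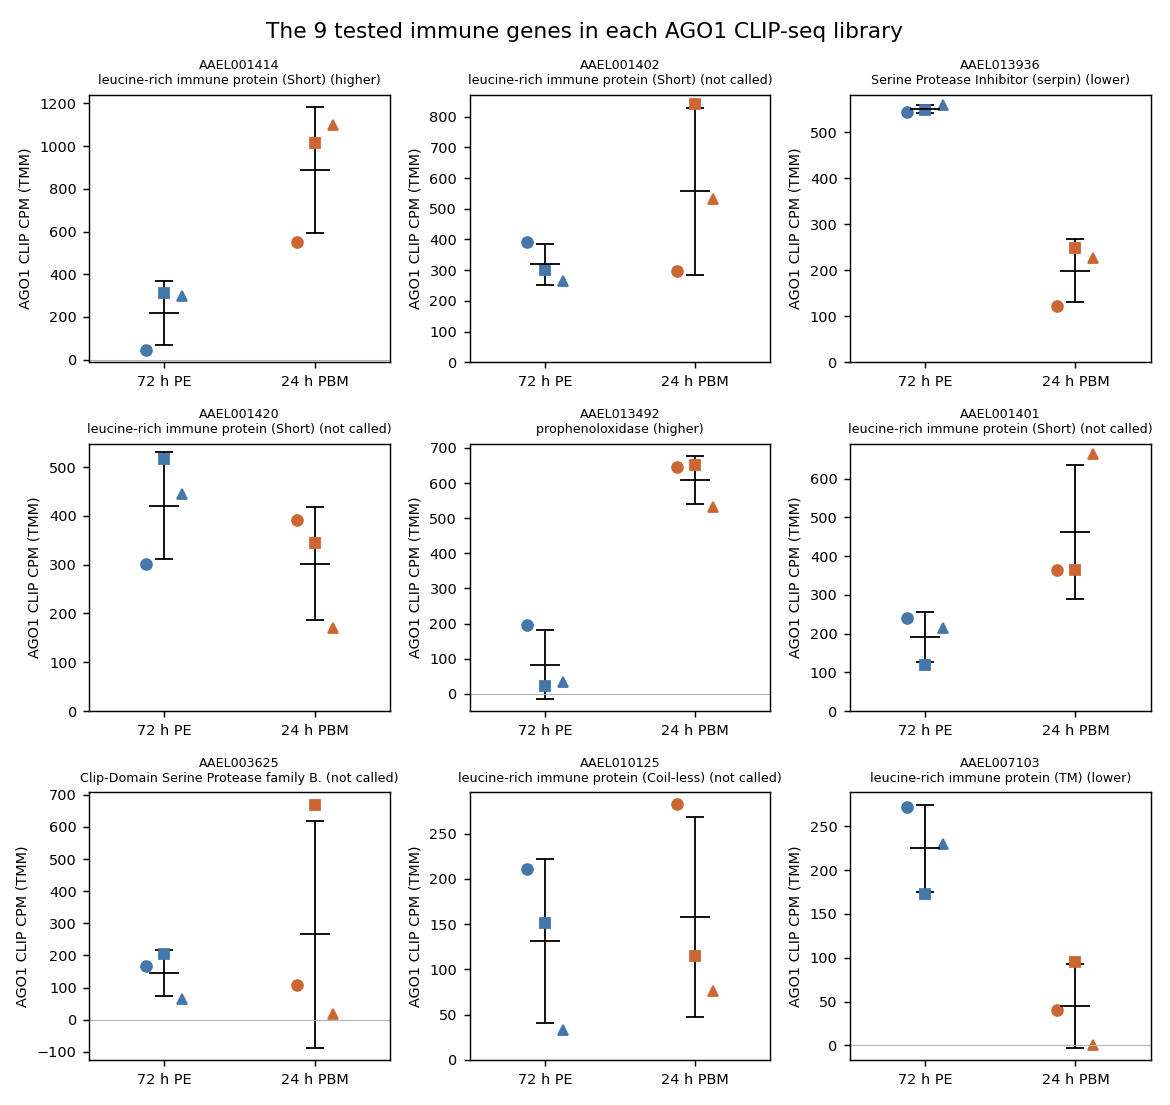
AGO1 CLIP level (CPM on the TMM scale, y axis) of the 9 tested immune genes in the 3 libraries at 72 h PE (blue) and the 3 at 24 h PBM (orange). Circles, squares and triangles are replicates 1, 2 and 3, and the black marks are the mean ± SD. AAEL013492 sits at 531 to 650 CPM at 24 h PBM, above 21.5 to 196 CPM at 72 h PE, and AAEL013936 at 121 to 249 CPM, below 543 to 559 CPM.

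**Figure D2:**
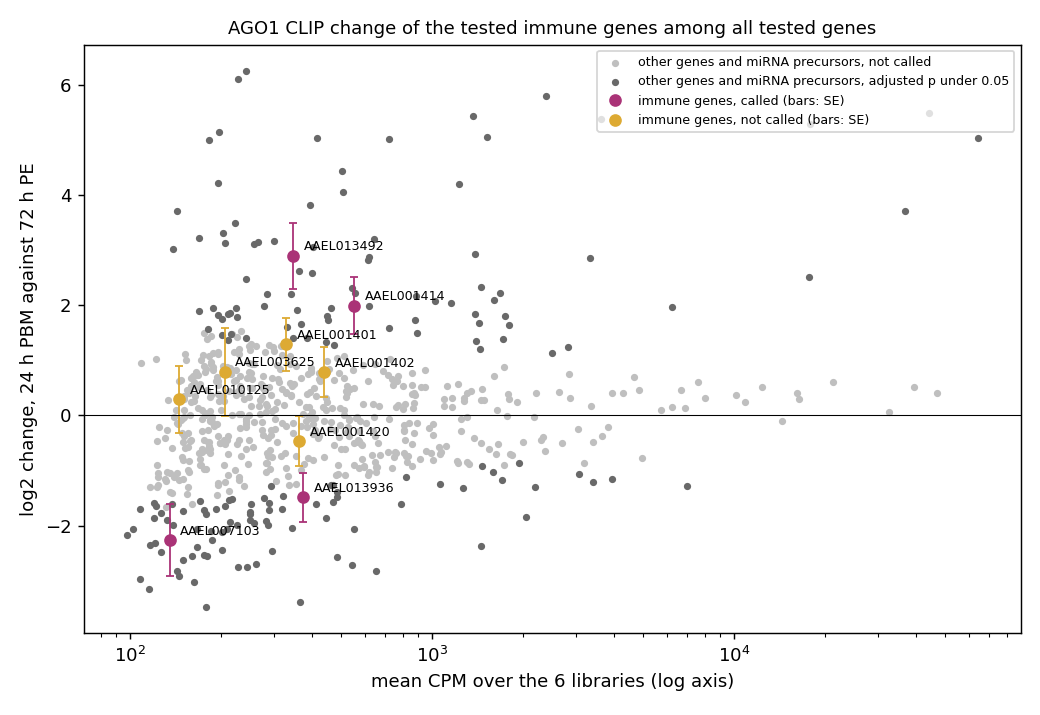
Mean level over the 6 libraries (CPM, log x axis) against the log2 change from 72 h PE to 24 h PBM (y axis) for all 687 tested genes and miRNA precursors. Immune genes are coloured, with bars of 1 SE, and their changes run from -2.27 for AAEL007103 to 2.90 for AAEL013492.

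Leucine-rich immune proteins, which in the malaria mosquito Anopheles gambiae include carriers of the complement-like protein TEP1 in hemolymph, held the most counts of any family, 876 on 20 genes. Their summed level was 1750, 2003 and 1777 CPM at 72 h PE and 2197, 3004 and 2767 CPM at 24 h PBM. All libraries at 24 h PBM were above those at 72 h PE on this scale. On the TMM scale the sum over all genes was itself 1.52-fold higher at 24 h PBM, without overlap. As a share of gene counts (library totals) the family overlapped and its mean went the other way, from 0.228% ± 0.0274 to 0.216% ± 0.0373 (SD, n = 3), so its direction depends on the scaling. The subfamilies did not go one way. The 8 short proteins summed to 1293 ± 174 CPM (SD, n = 3) at 72 h PE and 2372 ± 444 CPM at 24 h PBM, without overlap on the TMM scale and with overlap on library totals (0.160% ± 0.0296 and 0.192% ± 0.0366 of gene counts). The 2 transmembrane and the 2 long proteins were lower at 24 h PBM without overlap on either scale, at 253 ± 84.4 CPM against 45.4 ± 48.0 CPM, and at 52.8 ± 18.0 CPM against 6.38 ± 11.0 CPM (SD, n = 3). The 8 coil-less proteins overlapped, at 243 ± 72.5 CPM and 232 ± 87.5 CPM. Of 6 tested genes of the family, 1 was higher, 1 was lower and 4 were not called.

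Most of this came from 1 stretch of the genome. On AaegL3 supercontig supercont1.32, 5 short leucine-rich immune genes have their peaks within 35171 bases. They held 639 counts, 72.9% of the family and 30.8% of all immune counts, and 4 of them were tested.

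AAEL001414, the gene of this cluster with the most counts, had 3, 29 and 18 counts at 72 h PE and 41, 53 and 58 at 24 h PBM. That is 45.3, 312 and 296 CPM against 553, 1014 and 1099 CPM, so each library at 24 h PBM was above each at 72 h PE, and replicate 1 was the lowest of its time in both. The level rose 3.97-fold (log2 1.99, SE 0.51, edgeR adjusted p = 0.00652), from 218 ± 150 to 889 ± 294 CPM (SD, n = 3).

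Its 21 peaks are spread along 1592 bases. The peak with the most counts, supercont1.32:440542-440637 in coding sequence, had 0, 12 and 5 counts at 72 h PE and 6, 9 and 6 at 24 h PBM, which overlap. The next, supercont1.32:441435-441463, is classed as exon and lies at the 5′ edge of the gene's peaks. It had 0, 1 and 0 counts at 72 h PE and 11, 8 and 13 at 24 h PBM. That peak failed the count filter, and without a filter it was called higher (log2 4.67, edgeR adjusted p = 0.0489).

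AAEL001401, of the same cluster but on the opposite strand, had 16, 11 and 13 counts at 72 h PE and 27, 19 and 35 at 24 h PBM. The levels were 241, 118 and 214 CPM against 364, 364 and 663 CPM, which do not overlap. It was not called (log2 1.29, SE 0.48, 95% interval 0.29 to 2.28, edgeR adjusted p = 0.0521). The call depends on the setting, since 9 of 18 alternatives called it higher. One of them set the library size to the counts of the tested genes in place of all genes (adjusted p = 0.0416).

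AAEL001402 had 26, 28 and 16 counts at 72 h PE and 22, 44 and 28 at 24 h PBM, which overlap in CPM. It was not called (log2 0.78, SE 0.45, 95% interval -0.15 to 1.71, edgeR adjusted p = 0.208). Without replicate 1 at 24 h PBM it was called higher, at log2 1.20 (adjusted p = 0.0392). Its top peak, supercont1.32:407313-407379 in coding sequence, had 4, 2 and 2 counts at 72 h PE and 4, 12 and 3 at 24 h PBM.

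AAEL001420 went the other way within the cluster, with 20, 48 and 27 counts at 72 h PE and 29, 18 and 9 at 24 h PBM. It was not called either (log2 -0.47, SE 0.45, 95% interval -1.40 to 0.46, edgeR adjusted p = 0.460). Its top peak, supercont1.32:428553-428602 in coding sequence, had 2, 4 and 0 counts at 72 h PE and 7, 5 and 1 at 24 h PBM. As a share of the cluster's counts, which does not depend on scaling, AAEL001420 went from 30.8%, 41.4% and 36.0% to 24.4%, 13.4% and 6.92%. AAEL001414 went from 4.62%, 25% and 24.0% to 34.5%, 39.6% and 44.6%. Neither overlaps between the times. AAEL001402 (40.0%, 24.1% and 21.3%, then 18.5%, 32.8% and 21.5%) and AAEL001401 (24.6%, 9.48% and 17.3%, then 22.7%, 14.2% and 26.9%) do. Shares of 1 sum are tied to each other, and they were given no test. The genes share a family, and reads from near-identical stretches could have been assigned to any of them. How the authors assigned such reads is not given in the sources used here.

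AAEL007103, a leucine-rich immune protein with a transmembrane segment per its name, lies on another supercontig, supercont1.236. It had 18, 16 and 14 counts at 72 h PE and 3, 5 and 0 at 24 h PBM. The 272, 172 and 230 CPM at 72 h PE were all above the 40.4, 95.7 and 0 CPM at 24 h PBM. No library at 24 h PBM reached the filter level, which is 154 CPM without the TMM factor. The level fell 4.81-fold (log2 -2.27, SE 0.66, edgeR adjusted p = 0.0127), and the fold depends on how the test treats the counts near 0. Leaving out any 1 of 4 libraries ended the call, at adjusted p = 0.0949 without replicate 1 and 0.0958 without replicate 3 at 72 h PE, and 0.0678 and 0.0949 without replicates 1 and 3 at 24 h PBM.

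AAEL010125, a coil-less leucine-rich immune gene, had 14, 14 and 2 counts at 72 h PE and 21, 6 and 4 at 24 h PBM. It is given as the last of the 9 tested genes, outside the rule for named genes. The groups overlap and it was not called (log2 0.29, SE 0.61, 95% interval -0.97 to 1.55, edgeR adjusted p = 0.741). Its sign turned with the scaling, to log2 -0.29 on library totals.

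Members of the family with too few counts to test included AAEL012767 (short), with 7, 9 and 2 counts at 72 h PE and 0 in all 3 libraries at 24 h PBM. AAEL012086 (long) had 4, 3 and 4 counts and again 0 in all 3 at 24 h PBM. A count of 0 allows a level of up to 3 counts, which is 40.4 to 57.4 CPM in the libraries at 24 h PBM. AAEL012086 at 72 h PE is near that limit, and without a filter neither was called (edgeR adjusted p = 0.140 and 0.453). AAEL012255 (short) went the other way, with 0, 3 and 2 counts at 72 h PE and 4, 2 and 5 at 24 h PBM. These 3 genes were picked out after their values were seen.

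**Figure D3:**
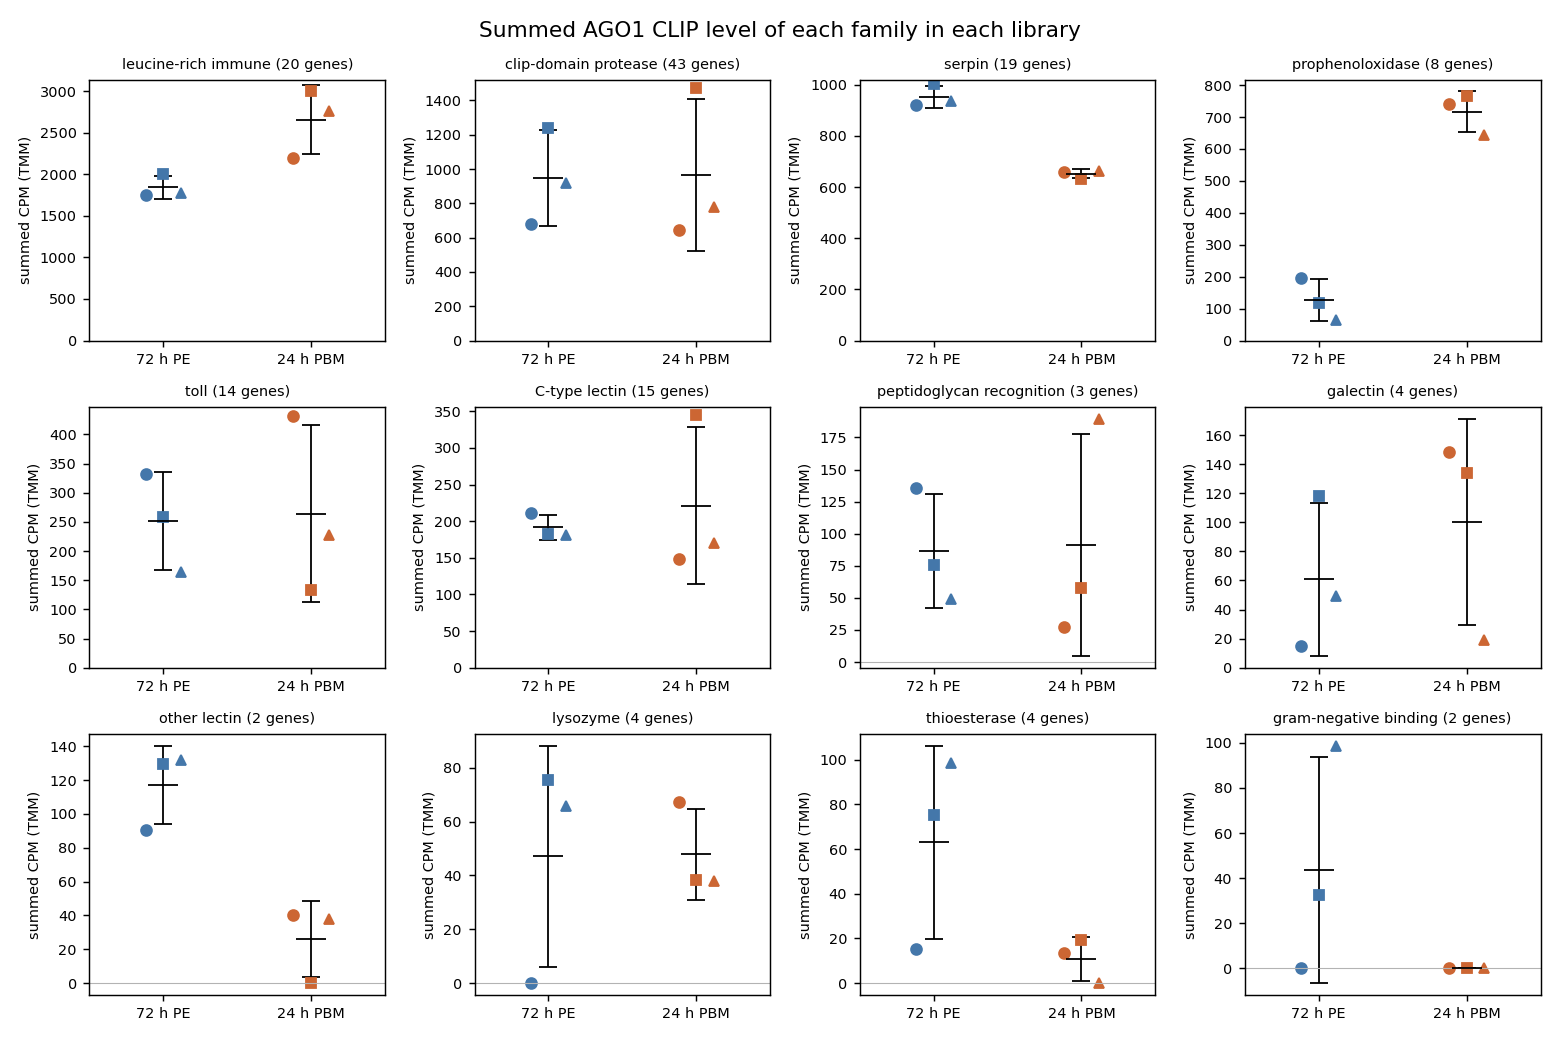
Summed AGO1 CLIP level (CPM on the TMM scale, y axis, each panel with its own range) of the 12 families in the 3 libraries at 72 h PE (blue) and the 3 at 24 h PBM (orange), with the mean ± SD in black and symbols for replicates 1 to 3. Prophenoloxidases and leucine-rich immune genes are higher at 24 h PBM without overlap, serpins and the other lectins are lower without overlap, and the other 8 families overlap. The sum over all genes is 1.52-fold higher at 24 h PBM on this scale, and on library totals the leucine-rich immune genes overlap and have a slightly lower mean at 24 h PBM.

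The remaining recognition proteins had few counts, none of their genes was tested, and most of their families overlapped between the times. The 3 peptidoglycan recognition proteins, which bind the bacterial cell wall, summed to 136, 75.4 and 49.3 CPM at 72 h PE and 27.0, 57.4 and 190 CPM at 24 h PBM. AAEL010171, of the long kind, had 22 of their 34 counts, and 95.5% of its counts lay in 1 coding peak, supercont1.458:249097-249133. That peak had 9, 5 and 1 counts at 72 h PE and 0, 1 and 5 at 24 h PBM. AAEL012380 and AAEL009474 had 7 and 5 counts.

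The 2 Gram-negative binding proteins, AAEL007626 and AAEL003889, had 5 and 4 counts, all of them in replicates 2 and 3 at 72 h PE. Each time then includes a library at 0, so the groups overlap. The 15 C-type lectins, which bind sugars on cell surfaces, held 80 counts. AAEL011070, a galactose-binding one, had 40 of them, as 4, 12 and 9 at 72 h PE and 4, 8 and 3 at 24 h PBM. Its top peak, supercont1.539:637920-637950, is coding and had 19 counts. AAEL005641 and AAEL000543 followed with 9 and 8 counts.

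The 4 galectins, another family of sugar-binding proteins, held 34 counts, 19 of them on AAEL003844 and 7 each on AAEL003541 and AAEL004196. Their libraries overlapped. The other 2 lectin genes were lower at 24 h PBM without overlap, at 117 ± 23.0 CPM against 26.1 ± 22.6 CPM (SD, n = 3), on 31 counts in all. AAEL010584 had 6, 6 and 3 counts at 72 h PE and 2, 0 and 2 at 24 h PBM, and its name is that of a sorting receptor of the secretory pathway and not of an immune protein. AAEL010901, a putative mannose-binding lectin, had 0, 6 and 5 counts and then 1, 0 and 0.

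The thioesterases, enzymes of lipid metabolism and protein deacylation, had 16 counts on 4 genes. AAEL003569, AAEL009539 and AAEL001235 had 8, 6 and 1. Complement-like proteins carry names outside the search words, and 7 genes named tep or macroglobulin/complement were looked up after the values were seen. AAEL008607, named tep3, had 11, 30 and 13 counts at 72 h PE and 18, 11 and 2 at 24 h PBM, and was not called (log2 -0.50, edgeR adjusted p = 0.533).

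CLIP-domain proteases, which pass the recognition signal on by cutting one another and their substrates, were the family with the most genes, 43 with 382 counts. The summed level was 679, 1238 and 921 CPM at 72 h PE and 647, 1473 and 777 CPM at 24 h PBM, with replicate 2 the highest of both times and the groups overlapping. Family B, with 20 genes, held 289 of the counts. The 4 genes of family A, which includes proteins named as protease homologues, were higher at 24 h PBM without overlap, at 33.5 ± 18.9 CPM against 66.9 ± 9.84 CPM (SD, n = 3), on 20 counts in all, and overlapped on library totals.

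AAEL003625 of family B was the 1 tested gene, with 11, 19 and 4 counts at 72 h PE and 8, 35 and 1 at 24 h PBM. It was not called (log2 0.79, SE 0.80, 95% interval -0.91 to 2.49, edgeR adjusted p = 0.487). Without replicate 2 at 24 h PBM the change was log2 -1.04, so 1 library set its sign. Of its counts, 80.8% lay in 1 coding peak of 21 bases, supercont1.93:1858019-1858040, with 1, 18 and 4 counts at 72 h PE and 4, 35 and 1 at 24 h PBM. Replicate 2 was the highest library of both times at that peak.

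AAEL000028 and AAEL000074, both of family B and on supercont1.1, were next with 42 and 25 counts and overlapped. AAEL006576, a putative CLIP-domain protease, had 4, 3 and 4 counts at 72 h PE and 1, 1 and 0 at 24 h PBM. It was too low to test and was picked out after its values were seen.

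Serpins are inhibitors that trap serine proteases, and several insect serpins hold back the Toll and melanization cascades. The 19 serpins held 328 counts and summed to 920, 1001 and 938 CPM at 72 h PE and 660, 631 and 663 CPM at 24 h PBM. Every library at 24 h PBM was below every library at 72 h PE, on the TMM scale and on library totals. AAEL013936 held 155 of the 328 counts. Without it the other 18 serpins summed to 377, 452 and 378 CPM at 72 h PE and 539, 383 and 436 CPM at 24 h PBM. These overlap, with the higher mean at 24 h PBM on the TMM scale. On library totals they overlap too and the mean went the other way, from 0.0498% ± 0.00739 to 0.0367% ± 0.00623 of gene counts (SD, n = 3). The direction of the other 18 thus depends on the scaling.

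AAEL013936, whose predicted cleavage site is I/S per its name, had 36, 51 and 34 counts at 72 h PE and 9, 13 and 12 at 24 h PBM. The 543, 549 and 559 CPM at 72 h PE lay close together, and the 121, 249 and 227 CPM at 24 h PBM were all lower. The level fell 2.80-fold (log2 -1.49, SE 0.45, edgeR adjusted p = 0.0156), from 551 ± 8.12 to 199 ± 68.3 CPM (SD, n = 3). Leaving out any 1 of 3 libraries ended the call, at adjusted p = 0.0534 and 0.0687 without replicates 2 and 3 at 72 h PE and 0.0656 without replicate 1 at 24 h PBM.

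Its 28 peaks spread over 65482 bases of supercont1.963, and 2 of them held 99 of its 155 counts (63.9%). The coding peak supercont1.963:213312-213351 had 13, 16 and 14 counts at 72 h PE and 5, 7 and 5 at 24 h PBM, and was not called (log2 -1.33, edgeR adjusted p = 0.0871). The peak supercont1.963:270176-270204, at the 5′ edge and of the class mRNA, had 11, 12 and 10 counts and then 0, 4 and 2. It fell (log2 -2.37, SE 0.74, edgeR adjusted p = 0.0136).

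These were the 2 of 582 immune peaks with enough counts to test. Both passed the count filter through their levels at 72 h PE alone, so the filter favoured a lower level at 24 h PBM. By edgeR none was called higher and 1 was called lower, both having lower levels at 24 h PBM, where 36.2% of the 948 tested peaks were called, 27.1% higher and 9.07% lower. The call on the peak was lost when any 1 of 5 libraries was left out, that is each but replicate 2 at 24 h PBM. It was also lost without a filter.

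AAEL008364, the serpin with the next most counts, had 11, 9 and 7 at 72 h PE and 8, 10 and 4 at 24 h PBM, at 126 ± 35.8 and 125 ± 59.6 CPM (SD, n = 3). AAEL007765 had 2, 2 and 5 counts and then 8, 2 and 6, with 96.0% of them in 1 coding peak, supercont1.279:1277713-1277749. Both overlapped and neither was tested. AAEL003686, a serpin homologue named as unlikely to inhibit, had 3, 6 and 3 counts and then 3, 2 and 2. It was too low to test and was picked out after its values were seen.

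The Toll pathway carries signals from the surface of the fat body cell to NF-kappaB factors that switch on antimicrobial peptides. Its 14 genes held 107 counts, none was tested, and the sums overlapped, at 252 ± 83.9 CPM at 72 h PE and 264 ± 152 CPM at 24 h PBM (SD, n = 3). AAEL007696, named as a Relish-like NF-kappaB transcription factor of the Toll pathway, had 11, 10 and 4 counts at 72 h PE and 10, 3 and 1 at 24 h PBM. Its top peak, supercont1.275:1344999-1345088, is intronic and had 9 of its 11 counts in replicate 2 at 72 h PE. The Toll-like receptor AAEL007619 had 23 counts and the pathway gene AAEL000709 had 20. For all 3 the groups overlapped.

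Prophenoloxidases are the copper enzymes that, once cleaved, make melanin around pathogens and at wounds. The 8 genes summed to 196, 118 and 65.8 CPM at 72 h PE and 741, 765 and 644 CPM at 24 h PBM, with every library at 24 h PBM higher on both scales. AAEL013492 held 127 of their 157 counts. Without it the other 7 had 0, 9 and 2 counts at 72 h PE and 7, 6 and 6 at 24 h PBM, which overlap in CPM.

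AAEL013492 had 13, 2 and 2 counts at 72 h PE and 48, 34 and 28 at 24 h PBM. That is 196, 21.5 and 32.9 CPM against 647, 650 and 531 CPM, so the groups are far apart, with replicate 1 the highest at 72 h PE. The level rose 7.44-fold (log2 2.90, SE 0.60, edgeR adjusted p = 0.00102), from 83.5 ± 97.7 to 609 ± 68.1 CPM (SD, n = 3). Replicate 1 alone reached the filter level at 72 h PE, and without it the change was log2 4.51.

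Of its 110 counts at 24 h PBM, 52 lay on 2 coding peaks near the 3′ edge. The peak supercont1.856:202703-202719 had 0 counts in all 3 libraries at 72 h PE and 14, 7 and 4 at 24 h PBM. The peak supercont1.856:202789-202796, 70 bases away, had 0 in all 3 and then 14, 9 and 4. Against a floor of 3 counts in each library at 72 h PE, these levels were at least 3.41-fold and 3.68-fold higher at 24 h PBM. Neither passed the count filter, and without a filter both were called higher. The counts of both peaks are alike in each library, and whether the same reads are counted in both is not given in the files. Without both, the gene had 13, 2 and 2 counts at 72 h PE and 20, 18 and 20 at 24 h PBM. The peak at 202789-202796 is shorter than 15 bases. With all such short peaks left out, the gene was still called higher (log2 2.56, edgeR adjusted p = 0.00536).

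AAEL011763 was the other prophenoloxidase without overlap, with 0, 0 and 1 counts at 72 h PE and 2, 3 and 4 at 24 h PBM, too few to test. AAEL006877 had 0, 5 and 0 counts and then 0, 0 and 1. AAEL013493, AAEL013498 and AAEL013501 lie on the same supercontig as AAEL013492 and had 3, 1 and 3 counts. Prophenoloxidase genes are alike in sequence, so the split of reads among them is uncertain. Prophenoloxidase is also made by hemocytes, the mosquito's blood cells, which cling to fat body. No gene named hemocytin, hemolectin, nimrod, draper or peroxidasin had a count, and 4 laminin genes summed to 724, 398 and 493 CPM at 72 h PE and 499, 383 and 360 CPM at 24 h PBM. These overlap on the TMM scale. On library totals the laminin genes were lower at 24 h PBM without overlap (0.0658% ± 0.0166 and 0.0336% ± 0.00633 of gene counts, SD, n = 3). Of the 3 laminin genes tested, none was called, and they did not go one way. The log2 changes were 0.94 for AAEL003658, -0.63 for AAEL008773 and -1.16 for AAEL005187. Whether the laminin genes mark hemocytes in this tissue was not tested. In bulk tissue, more cells of a type and more RNA per cell cannot be told apart, and the part of hemocytes was not tested.

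Lysozymes, which cut bacterial cell walls, held 20 counts on 4 genes and overlapped between the times. AAEL005988, with several lysozyme domains, had 9 counts, AAEL017132 (Lys-C) had 7 and AAEL010100 had 2. None was tested.

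**Figure D4:**
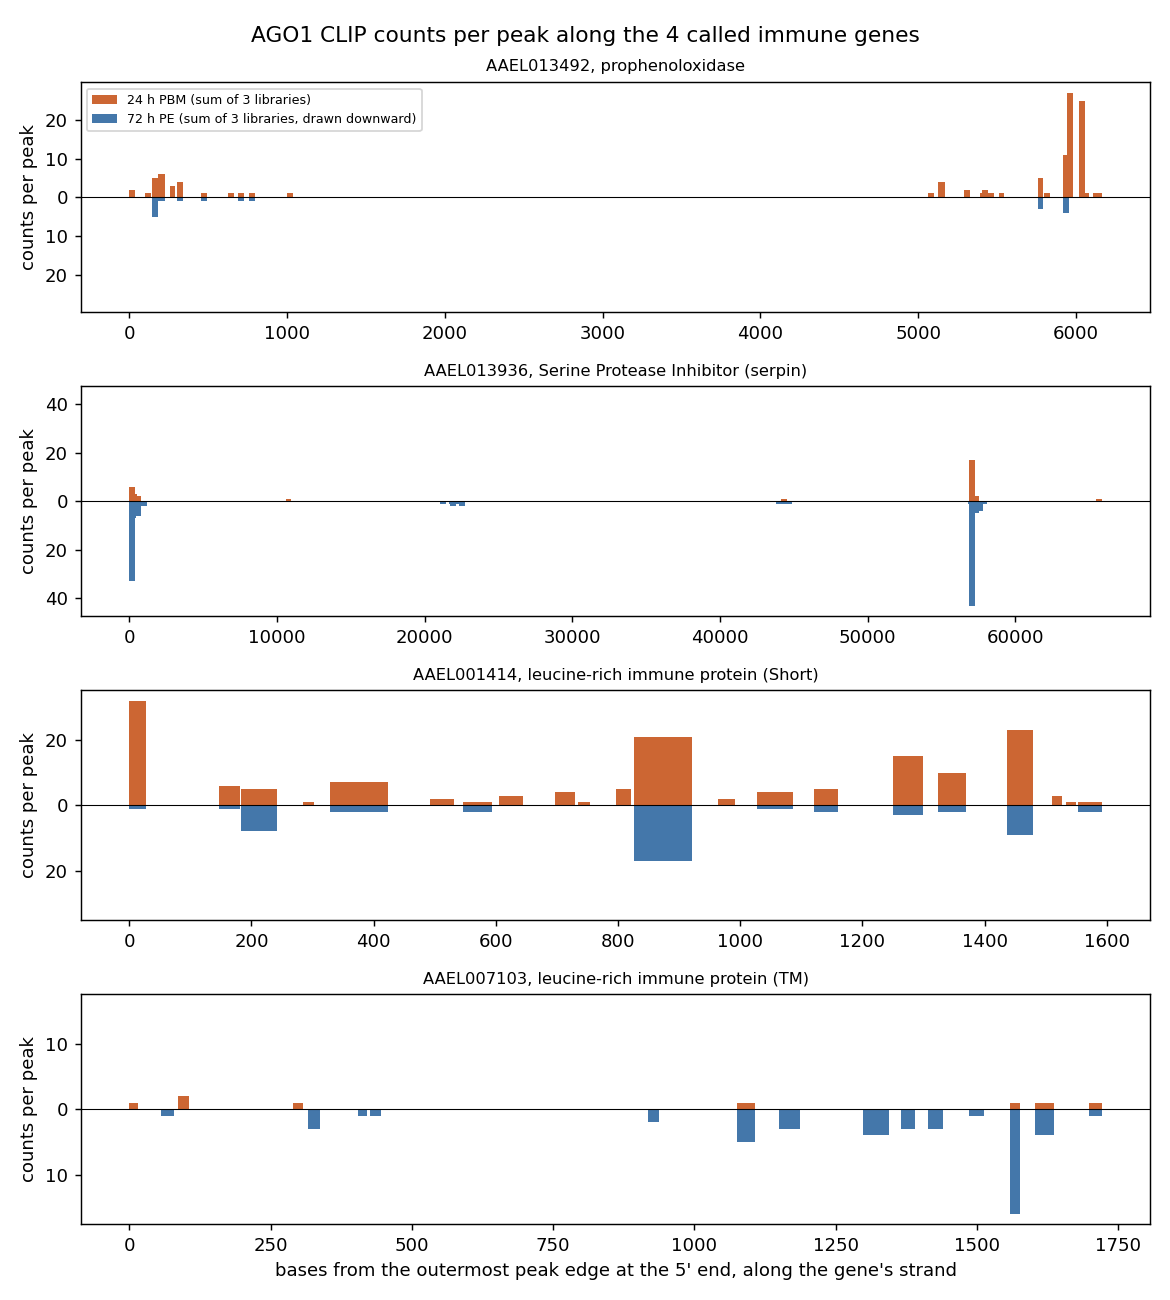
Counts per peak (y axis, sum of the 3 libraries of a time) along the 4 called immune genes, with 24 h PBM drawn upward in orange and 72 h PE downward in blue. The x axis is the distance in bases from the outermost peak edge at the 5′ end along the gene's strand, and narrow peaks are widened so as to be visible. In AAEL013492 the 2 tallest peaks, 25 and 27 counts at 24 h PBM, have none at 72 h PE.

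The authors classed peaks within genes as coding, untranslated region, intron, exon or mRNA, and the shares below are of the counts in these classes. Counts of other genes outside these classes, such as those on miRNA precursors, were left out. Within these classes, AGO1 counts lay mostly on coding sequence. In each library, 80.4% to 87.5% of the immune counts were on coding peaks, against 54.1% to 71.3% for all other genes. Peaks in 3′ untranslated regions, where miRNA sites are most often described in animals, held 5.35% of the immune counts and 11.7% of the others. Introns held 5.30% and 15.6%. In other genes the coding share was 57.4% ± 2.92 at 72 h PE and 69.7% ± 1.56 at 24 h PBM (SD, n = 3), without overlap. In immune genes it was 81.2% ± 0.887 and 84.1% ± 3.51, and the times overlapped. These shares were given no test. They weight genes by counts, and the 5 genes of supercont1.32 weigh heavily among the immune genes. The other genes include vitellogenin-A1, with 30, 71 and 90 counts at 72 h PE and 1931, 2394 and 1723 at 24 h PBM. The part of yolk genes in the coding shares was not tested. Whether untranslated regions are annotated as fully for immune genes as for others was not tested. Of the immune peaks, 69.9% had counts in 1 library, as had 72.9% of all gene peaks. The median length was 23 bases for immune peaks and 24 for all gene peaks.

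**Figure D5:**
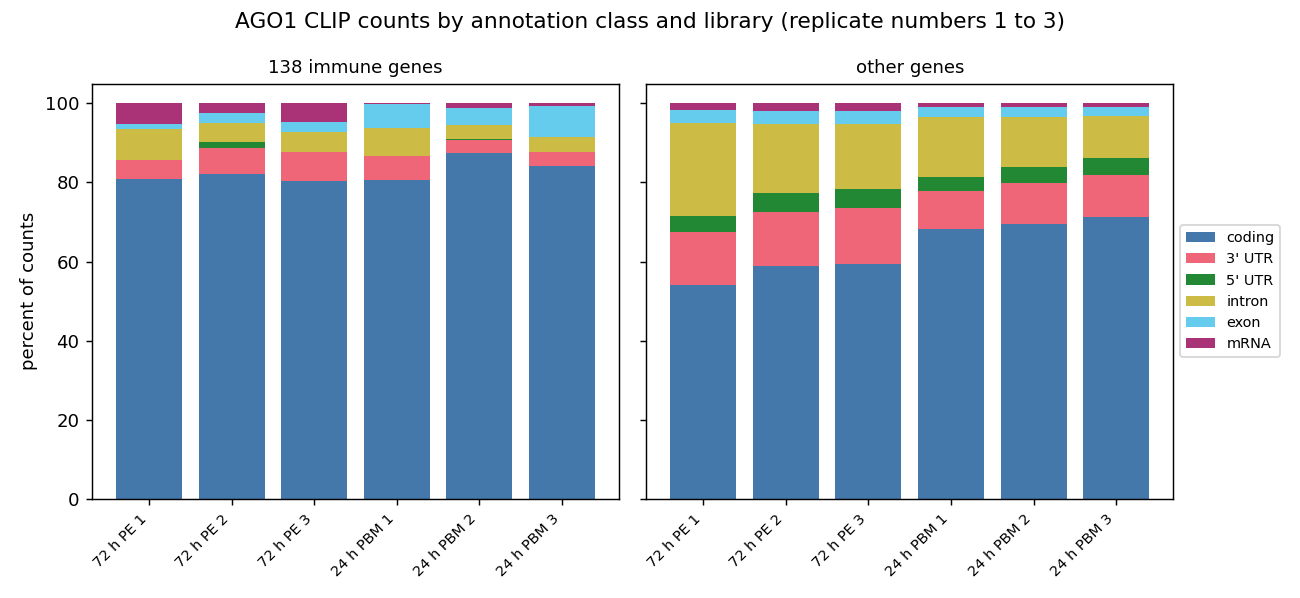
Share of AGO1 CLIP counts (percent, y axis) by the authors' annotation class in each of the 6 libraries, for the 138 immune genes (left) and all other genes (right). The shares are of the counts in the classes shown, and other classes, such as miRNA precursors, are left out. Coding sequence takes 80.4% to 87.5% of the immune counts and 54.1% to 71.3% of the others.

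Beyond the search words, a list of 74 other immune genes (signalling, RNA interference, antioxidant, iron-binding and melanin-pathway names) held 901 counts. Its summed level was 1584, 2164 and 1579 CPM at 72 h PE and 2776, 2831 and 2748 CPM at 24 h PBM, without overlap, and it overlapped on library totals (0.220% ± 0.0504 and 0.226% ± 0.0122 of gene counts, SD, n = 3). Only 2 of the 74 were tested, 1 was called higher and none lower. The one called was AAEL006794, which the annotation names dicer-1. The gene entered the list through the word dicer in its name, and whether it has an immune role was not tested. It had 9, 8 and 6 counts at 72 h PE and 19, 20 and 13 at 24 h PBM (log2 1.46, SE 0.51, edgeR adjusted p = 0.0381). That call was lost under 7 of 17 alternatives. These were DESeq2 (adjusted p = 0.0580), library totals (0.186), no filter (0.399), scaling on the whole peak table (0.0908), and leaving out replicate 2 (0.158) or 3 (0.109) at 72 h PE or replicate 2 at 24 h PBM (0.131). With only peaks of at least 10 counts the gene was not tested. AAEL001612 carries the name dicer-1 too and was picked out afterwards. Its 0, 3 and 3 counts at 72 h PE and 4, 1 and 3 at 24 h PBM overlapped in CPM and were not tested. AAEL007385, the heavy chain of the iron store ferritin, had 3, 15 and 5 counts and then 23, 15 and 10, and was not called (log2 1.38, SE 0.54, edgeR adjusted p = 0.0656).

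The other 3 genes of the list with the most counts were not tested. The ferritin subunit AAEL007383 had 0, 9 and 4 counts at 72 h PE and 24, 10 and 10 at 24 h PBM. The class B scavenger receptor AAEL000227 had 3, 4 and 5 counts and then 18, 9 and 5. AAEL004995, a putative caspase-activated nuclease, had 1, 14 and 6 counts and then 3, 9 and 10. No gene with a peak was named defensin, attacin, diptericin, gambicin or cactus.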

How the data were processed

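Per the column explanations deposited with it, the peak table gives barcode counts per peak and library on AaegL3 supercontigs with AaegL3.3 annotation. These counts were made by the authors over 1 common set of peaks. Among the tools in the submitters' processing notes are TopHat2 2.0.14 and Bowtie2 2.2.3 (aligners), R 3.1.2, and bedtools 2.17.0. Peak positions are as in the file, which does not say whether they start at 0 or 1. The peak caller's settings, the handling of duplicate and multiply mapped reads and the use of strand are not stated in the sources used here.

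Each gene or miRNA precursor, 8662 in all, was given the sum of its peaks, and peaks without a gene stayed out. The test was edgeR 4.0.16 in R 4.3.3 (TMM, filterByExpr with a minimum of 10, about 154 CPM in 3 libraries, robust quasi-likelihood F test, two-sided, Benjamini-Hochberg at 0.05), checked on simulated data. CPM are counts over the library's gene counts times its TMM factor, scaled to a common total. The filter level alone is in CPM without the TMM factor. No gene length was at hand, so levels are not compared between genes. The SE of a log2 change is its size over the square root of F. DESeq2 1.42.0 was an alternative.

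The genes, lists and tests were chosen with earlier results of these data known. A first fit took the library size from the tested genes and called 5 immune genes. The fit reported takes it from all genes, was adopted after that outcome was seen, and calls 4. The difference is AAEL001401. Named genes are those called, the 3 with the most counts in each family, tested genes whose times do not overlap, and the 5 other immune genes with the most counts. AAEL010125, the one tested gene outside this rule, and those marked as picked out afterwards were added. No label says that a replicate number pairs libraries, so the reported fit did not take the numbers as pairs, and the replicate block was an alternative. Same-numbered replicates correlated at 0.210, 0.0713 and 0.157 in their deviations. Libraries with different numbers correlated at -0.171 to 0.0570. No replicates agreed within sampling noise. Peak, gene or protein sequences are not printed, and none of the 138 IDs matched the gene table at hand.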

Additional observations from a re-analysis of the deposited data

How the results depend on the processing

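AAEL013492 and AAEL001414 stayed called higher under all 18 alternatives, at log2 2.33 to 4.51 (highest adjusted p = 0.0240) and 1.36 to 2.35 (highest adjusted p = 0.0446). AAEL007103 lost its call under 6 of 17 and AAEL013936 under 6 of 18, among them no filter (adjusted p = 0.138 and 0.140). AAEL001401 was called under 9 of 18 and AAEL001402 under 2 of 18. The count of called immune genes was 4, and 2 with no filter or with only peaks of at least 10 counts. It ran from 2 to 5 when 1 library was left out, with 2 without replicate 3 at 72 h PE. Without replicate 1 of both times, added after seeing the data, it was 4, all of them higher, and neither lower call held (adjusted p = 0.0744 and 0.0585). Library size over the tested genes and the tables without structural RNA or short peaks were also added after seeing the data. With the replicate block the count was 5 (adjusted p of AAEL001401 = 0.0330), and calls among all genes went from 175 to 211. Each library correlated best with its own number, a hint from the data and not from the design.

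Called immune peaks numbered 2 with library totals, both lower, and ran from 0 to 1 when 1 library was left out. With no filter they numbered 3, all higher, and the peak called lower in the reported fit was not among them. Called genes of the other immune list, 1 in the reported fit, numbered 0 with DESeq2, library totals, no filter, peaks of at least 10 counts or scaling on the whole peak table. They numbered 2 with at least 10 counts in 3 libraries, with the replicate block and without structural RNA, and ran from 0 to 3 when 1 library was left out. With gene counts as the denominator the immune share was 0.586% and 0.468%. The sign of AAEL010125 turned with library totals (-0.29), scaling on the whole peak table (-0.0084), without replicate 3 at 72 h PE (-0.084) and without replicate 1 at 24 h PBM (-0.39). That of AAEL003625 turned without replicate 2 at 24 h PBM (-1.04). Over the left-out libraries they ran to 0.82 and 1.47. The cause of these changes was not tested.

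Depth is a limit, since 129 of the 138 genes did not pass the count filter. CLIP counts do not separate AGO1 binding from the amount of transcript, and matched RNA-seq was not analysed here.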

Other observations

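The antimicrobial peptide gene AAEL017536, named holotricin glycine rich repeat protein, belongs to the list of other immune genes and was picked out after its values were seen. It had 5, 18 and 5 counts at 72 h PE and 1, 1 and 0 at 24 h PBM, at 117 ± 66.4 CPM and 10.9 ± 9.83 CPM (SD, n = 3), without overlap. It was too low to test with the filter, and without a filter it was not called (log2 -3.23, edgeR adjusted p = 0.212). The cecropins AAEL018349 and AAEL004223, antimicrobial peptide genes of the same list, went the other way. AAEL018349 had 0, 1 and 0 counts at 72 h PE and 0, 4 and 7 at 24 h PBM. For AAEL004223 the counts were 0, 0 and 0 and then 0, 3 and 0. Both overlapped, and without a filter neither was called (edgeR adjusted p = 0.576 and 0.622).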
